A study of Mus musculus with 4 samples.

Results

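The Meg3-proximal miRNAs are 10 mature miRNAs from 6 hairpins of the imprinted Dlk1-Dio3 region of mouse chromosome 12. They were chosen by name and position, from the arms of miR-673, miR-493, miR-337, miR-540, miR-665 and miR-370. These arms lie outside the Rtl1-antisense group and the miR-379/miR-410 cluster, and the members are 10 of the 1907 mature miRNAs in the table. The other arms of 2 of these hairpins, miR-665-5p and miR-370-5p, are also in the table but are not members. No measured level entered the choice of members, but it was made with earlier results of these data known. Small RNA-seq was performed on E14Tg2A, a mouse embryonic stem (ES) cell line of the 129/Ola strain, and on the epiblast-like aggregates (ELA) derived from it. Each of the 2 stages was sequenced from each of the 2 media, as 4 libraries in all, and every library was made from RNA of 3 experiments that had been pooled. The library labelled ES serum (0 days in vitro) came from cells in fetal calf serum with leukemia inhibitory factor (LIF), and that labelled ES 2iL (0 days in vitro) from cells moved for several passages to a serum-free medium with LIF, the MEK inhibitor PD0325901 and the GSK3 inhibitor CHIR99021. ELA serum and ELA 2iL (2 days in vitro) were floating aggregates of those same 2 kinds of ES cells, both grown in the same minimal medium without serum, inhibitors or LIF, so that "serum" and "2iL" name the earlier medium of an aggregate.

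The Dlk1-Dio3 region is an imprinted domain in which the protein-coding genes, such as Dlk1 and Rtl1, are expressed from the paternal chromosome, and the non-coding RNAs Meg3, Rian and Mirg from the maternal chromosome. Its many miRNAs are made from the maternal non-coding transcripts, and loss of maternal expression of the domain is known from mouse pluripotent cell lines with reduced developmental potential. A hairpin gives a 5′ arm (5p) and a 3′ arm (3p), of which one usually accumulates more, and bases 2 to 8 of the mature miRNA, the seed, guide its pairing with target mRNAs.

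The mature sequences are shown because the members are neighbours in the genome and yet no pair of them has the same seed. All 10 were found by name in RefSeq's miRNA records (table built on GRCm38.p6), and capitals mark the seed.
mmu-miR-673-5p: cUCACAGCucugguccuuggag
mmu-miR-673-3p: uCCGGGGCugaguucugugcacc
mmu-miR-493-5p: uUGUACAUgguaggcuuuc
mmu-miR-493-3p: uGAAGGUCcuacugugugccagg
mmu-miR-337-5p: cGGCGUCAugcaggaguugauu
mmu-miR-337-3p: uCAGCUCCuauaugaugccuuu
mmu-miR-540-5p: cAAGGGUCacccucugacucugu
mmu-miR-540-3p: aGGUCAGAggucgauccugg
mmu-miR-665-3p: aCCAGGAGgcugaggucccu
mmu-miR-370-3p: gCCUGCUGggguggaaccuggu
The 10 sequences held 10 distinct seeds, and their GC content ran from 40.9% to 68.2%. Of the 1623 listed miRNAs with a RefSeq sequence, 2 others had a seed in common with a member. One was miR-6985-3p (the seed of miR-673-5p), which had at most 0.361 RPM (reads scaled to a library total of 1000000 miRNA reads), and the other was miR-6915-5p (the seed of miR-540-3p), which was listed at 0 in all 4 libraries.

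Each hairpin was matched once on the plus strand of chromosome 12 in mm9, the build used by the authors. Mir673 lay at 110810200 to 110810290, 264 bases beyond the end of Meg3 as annotated by GENCODE (110779211 to 110809936). Mir493 lay at 110818443 to 110818525, Mir337 at 110823999 to 110824095, Mir540 at 110824290 to 110824356 and Mir665 at 110824524 to 110824617. These 5 hairpins overlapped no other GENCODE gene, exon or UTR, although the Rtl1 gene model of RefSeq (GRCm38.p6) spans them. Mir370 lay apart from them, at 110856468 to 110856546, in an intron of the non-coding gene Rian on the same strand. The 6 hairpins thus spanned 46347 bases, and the miRNAs of the Rtl1-antisense group, such as Mir127 at 110831056 to 110831125, lay between Mir665 and Mir370.

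RPM values were whole multiples of the value of 1 read, which gave depths of 8056984 (serum) and 2767016 (2iL) reads for ES cells, and of 4309257 (serum) and 587363 (2iL) reads for ELA. With 1 library a group, a difference between 2 libraries has no replicate check. It is given with a 95% interval (exact, Clopper-Pearson) that covers counting error only, and a difference whose interval leaves out 0 is called clear of counting error. As a check of the labels, the miR-302/miR-367 cluster, which marks the primed pluripotent state, took 0.595% of reads in ES serum and 3.73% in ELA serum, and 0.00784% in ES 2iL and 0.708% in ELA 2iL. The miR-290/miR-295 cluster, which the paper describes as more abundant in ES cells, took 8.61% in ES serum and 5.55% in ELA serum. It took 18.3% in ES 2iL and 14.1% in ELA 2iL, so that ELA 2iL stood above ES serum. Markers of other cell types were also measured. The 6 fibroblast or mesenchymal miRNAs summed to between 0.148% (ELA serum) and 0.485% (ES 2iL) of reads, nearly all of it miR-143-3p, which at 4729 RPM in ES 2iL was above every member, and the 3 neural miRNAs to between 0.0264% and 0.0433%. The fibroblast list was higher in 2iL than in serum at both stages, opposite to the members. The summed level of the neural list was lower in 2iL, as that of the members was, at 432.8 RPM (serum) and 301 RPM (2iL) in ES cells and at 297 RPM (serum) and 264 RPM (2iL) in ELA, where the intervals of its shares overlapped. In ES cells its miRNAs did not move together: miR-9-5p was at 356 RPM (serum) and 156 RPM (2iL), and miR-124-3p at 68.9 RPM (serum) and 142 RPM (2iL). The part of these lists in the results was not tested.

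The 10 members together were lowest in ES cells in 2iL and highest in ELA from serum. In ES cells their summed level was 4380 RPM in serum and 2010 RPM in 2iL, and in ELA it was 4757 RPM from serum and 3550 RPM from 2iL. These sums were 0.438%, 0.201%, 0.476% and 0.355% of the reads (Wilson 95% intervals 0.433 to 0.443, 0.196 to 0.206, 0.469 to 0.482 and 0.340 to 0.371). No 2 of these intervals overlapped. A pair of arms made up most of the sum: miR-673-5p gave 36.8% to 50.1% of the members' reads and miR-540-3p 20.2% to 32.8%.

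Mir673, the hairpin next to Meg3, gave the most abundant member from its 5′ arm. miR-673-5p was at 1613 RPM (serum) and 952 RPM (2iL) in ES cells, and at 1995 RPM (serum) and 1777 RPM (2iL) in ELA. Its ES 2iL library stood below the other three. miR-673-3p was at 465, 126, 402 and 223 RPM in the same order. Both 2iL libraries were below both serum libraries for the 3p arm, but not for the 5p arm.

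Mir493 gave low levels from both arms. In ES cells in serum and 2iL and in ELA from serum and 2iL, in that order, miR-493-5p was at 20.5, 17.3, 41.3 and 27.2 RPM, and miR-493-3p at 41.3, 27.5, 37.8 and 27.2 RPM. In ELA 2iL each arm rested on 16 reads, so that the Wilson interval of each ran from 16.8 to 44.3 RPM and held every other level of miR-493-3p.

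Mir540 gave nearly all of its reads from the 3′ arm. miR-540-3p was at 1437 RPM (serum) and 407 RPM (2iL) in ES cells and at 1210 RPM (serum) and 783 RPM (2iL) in ELA, with both 2iL libraries below both serum libraries. miR-540-5p was at 22.6, 22.0, 36.7 and 18.7 RPM, and only the ELA serum library stood apart from ES serum beyond counting error.

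miR-665-3p differed between media but not, beyond counting error, between stages: it was at 290.6 and 294.02 RPM in ES and ELA from serum, and at 185 and 192 RPM in ES and ELA from 2iL. miR-370-3p, the member within Rian, was at 491 RPM (serum) and 274 RPM (2iL) in ES cells, and at 739 RPM (serum) and 501 RPM (2iL) in ELA. Its highest level was in ELA serum and its lowest in ES 2iL, and ES serum and ELA 2iL were close to each other.

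**Figure D1:**
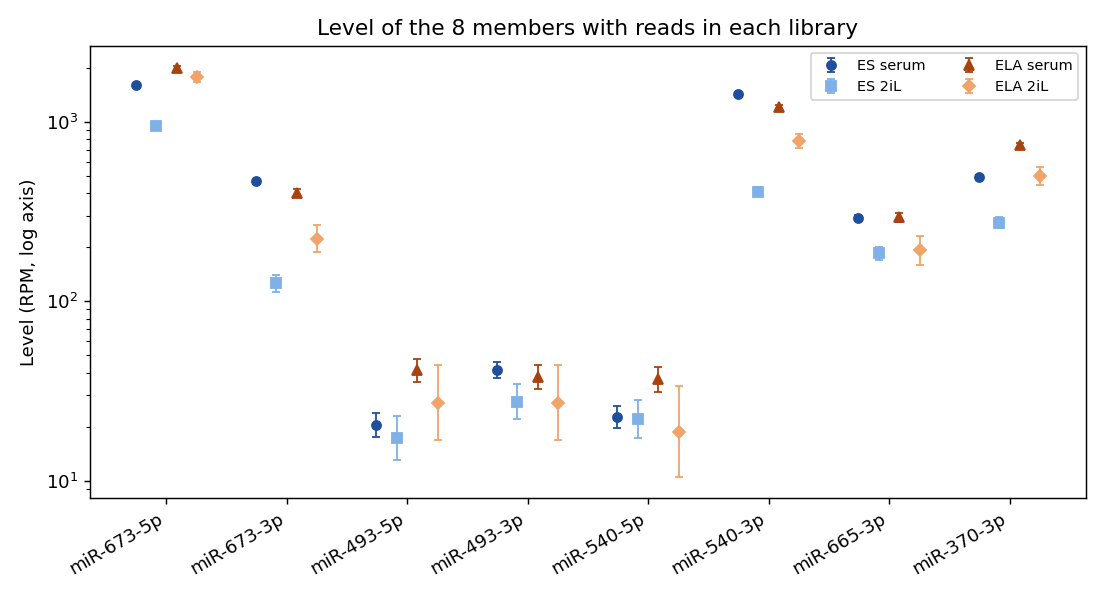
Level in RPM (log axis) of the 8 members with reads in the 4 libraries, 1 point a library, with Wilson 95% intervals for counting error. miR-673-5p and miR-540-3p are the most abundant, miR-493-5p, miR-493-3p and miR-540-5p stay under 50 RPM with wide intervals in ELA 2iL, and ES 2iL is the lowest library for 6 of the 8 members.

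Both arms of Mir337 were listed at 0 in all 4 libraries. A hairpin on the opposite strand, Mir3544 (110824023 to 110824083), covers the same place, and its mature arms overlap those of miR-337 by 21 and 17 bases. Over the table, 42 of 55 single-locus miRNAs (76.4%) that overlap a mature miRNA on the other strand were listed at 0, against 548 of 1517 others (36.1%). How the counting treated strand and overlapping features was not given in the sources used here, and the part of the overlap in these zeros was not tested. The zeros are therefore given as listed, not as absence of miR-337.

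The first question was whether the members differed between serum and 2iL. All 8 members with reads were lower in 2iL than in serum in ES cells and again in ELA. At each stage 6 of the 8 were clear of counting error, and those not clear were all under 50 RPM. Being clear depends on the number of reads, and its share among all miRNAs was not counted. For comparison, miRNAs were called expressed when log2(RPM + 1) averaged 5 or more over the libraries, which 6 of the members did. All 6 were lower in 2iL at both stages, against 71 (23.5%) of all expressed miRNAs with RPM, 39.1% with TMM factors, 40.4% with DESeq2 size factors and 29.1% with library totals that leave out the most abundant miRNAs. Both 2iL libraries were below both serum libraries for 5 of the 8 members and for 4 of the 6 expressed members, against 44 (14.6%) of all expressed miRNAs. Under the other 3 scalings, in the same order, 6, 6 and 5 of the 6 expressed members did so, against 27.8%, 28.5% and 20.9% of all expressed miRNAs.

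In ES cells, the summed level was 2.18-fold lower in 2iL (log2 ratio −1.12, interval −1.16 to −1.08). miR-673-3p was 3.70-fold lower (log2 ratio −1.89, interval −2.05 to −1.73) and miR-540-3p 3.53-fold lower (log2 ratio −1.82, interval −1.91 to −1.73). They were the 2 of 6 expressed members that were lower by at least 1 on the log2(RPM + 1) scale, against 53 (17.5%) of all expressed miRNAs. This count depends on the scaling of the libraries: it was 6 of 6 with TMM factors (26.2% of all expressed miRNAs), 5 of 6 with DESeq2 size factors (24.5%) and 5 of 6 with library totals that leave out the most abundant miRNAs (24.8%). The next were miR-370-3p at 1.79-fold, miR-673-5p at 1.69-fold and miR-665-3p at 1.57-fold lower. miR-540-5p and miR-493-5p were within counting error. The median difference of all expressed miRNAs was 0.44 on the log2(RPM + 1) scale, toward 2iL, and that of the 8 members −0.71.

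In ELA, the summed level was 1.34-fold lower after 2iL (log2 ratio −0.42, interval −0.49 to −0.36). None of the 6 members was lower by 1 or more on the log2(RPM + 1) scale, against 26 (8.61%) of all expressed miRNAs. With TMM factors 1 of 6 passed this limit (14.6% of all expressed miRNAs), with DESeq2 size factors 4 of 6 (18.2%) and with the reduced totals 0 of 6 (8.61%). The largest difference was that of miR-540-5p, 1.96-fold lower on 11 reads (log2 ratio −0.97, interval −2.001 to −0.09). miR-673-3p was 1.80-fold lower, miR-540-3p 1.55-fold, miR-665-3p 1.53-fold and miR-370-3p 1.48-fold. miR-673-5p, the most abundant member, was 1.12-fold lower (log2 ratio −0.17, interval −0.26 to −0.07). The median of all expressed miRNAs was 0.37 and that of the 8 members −0.60.

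The main test over all 4 libraries used stage and medium as additive terms in limma, with 1 residual degree of freedom, over 599 miRNAs that reached 10 reads in 2 or more libraries. For medium it called none of the 599 (0%) at an adjusted p under 0.05, with 176 at an unadjusted p under 0.05. The member nearest to the threshold, miR-673-3p, differed by −1.36 ± 0.50 (log2, SE; limma with Benjamini-Hochberg adjustment, adjusted p = 0.161), and miR-540-3p by −1.22 ± 0.51 (adjusted p = 0.192). With the recovered reads in edgeR (quasi-likelihood F-test), 1 of the 8 members was called for medium, miR-673-3p (log2 difference −1.79, adjusted p = 0.0350), with miR-540-3p just outside (−1.65, adjusted p = 0.0504). It called 42 of 599 miRNAs (7.01%) lower in 2iL. The DESeq2 Wald test called both (adjusted p = 0.0166 and 0.0321), among 48 of 599 miRNAs (8.01%) that it called lower in 2iL.

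The second question was whether the members differed between ES cells and ELA. From serum, 5 of 8 members were higher in ELA and 3 lower, and the summed level was 1.09-fold higher (log2 ratio 0.12, interval 0.09 to 0.14). Of the 6 expressed members 3 were higher and 3 lower with RPM. Of all expressed miRNAs 151 were higher and 151 lower, so the members were divided as all expressed miRNAs were. miR-493-5p was 2.02-fold higher, miR-540-5p 1.62-fold, miR-370-3p 1.51-fold and miR-673-5p 1.24-fold, and these 4 were clear of counting error. miR-673-3p and miR-540-3p were lower (log2 ratios −0.21, interval −0.29 to −0.13, and −0.25, interval −0.29 to −0.20). None of the 6 expressed members was higher by 1 or more on the log2(RPM + 1) scale, against 26 (8.61%) of all expressed miRNAs, and the count was also 0 with TMM factors (9.93% of all expressed miRNAs), DESeq2 size factors (11.6%) and the reduced totals (7.62%).

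From 2iL, 6 of 8 members were higher in ELA, and the summed level was 1.77-fold higher (log2 ratio 0.82, interval 0.75 to 0.89). Of the 6 expressed members 5 were higher and 1 lower with RPM, while of all expressed miRNAs 132 were higher and 170 lower. The abundant members moved by much the same amount: miR-540-3p was 1.92-fold higher, miR-673-5p 1.87-fold, miR-370-3p 1.82-fold and miR-673-3p 1.77-fold, and these 4 were clear of counting error. miR-665-3p did not follow them (1.04-fold, log2 interval −0.25 to 0.36). With RPM none of the 6 was higher by 1 or more, against 57 (18.9%) of all expressed miRNAs. With TMM factors 4 of 6 were (24.2% of all expressed miRNAs), with DESeq2 size factors 2 of 6 (21.2%) and with the reduced totals 4 of 6 (25.8%). For stage, limma called none of the 599 miRNAs (0%), with 125 at an unadjusted p under 0.05, and the members' adjusted p ran from 0.335 to 0.962. edgeR called 39 of the 599 for stage and DESeq2 50, none of them a member.

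**Figure D2:**
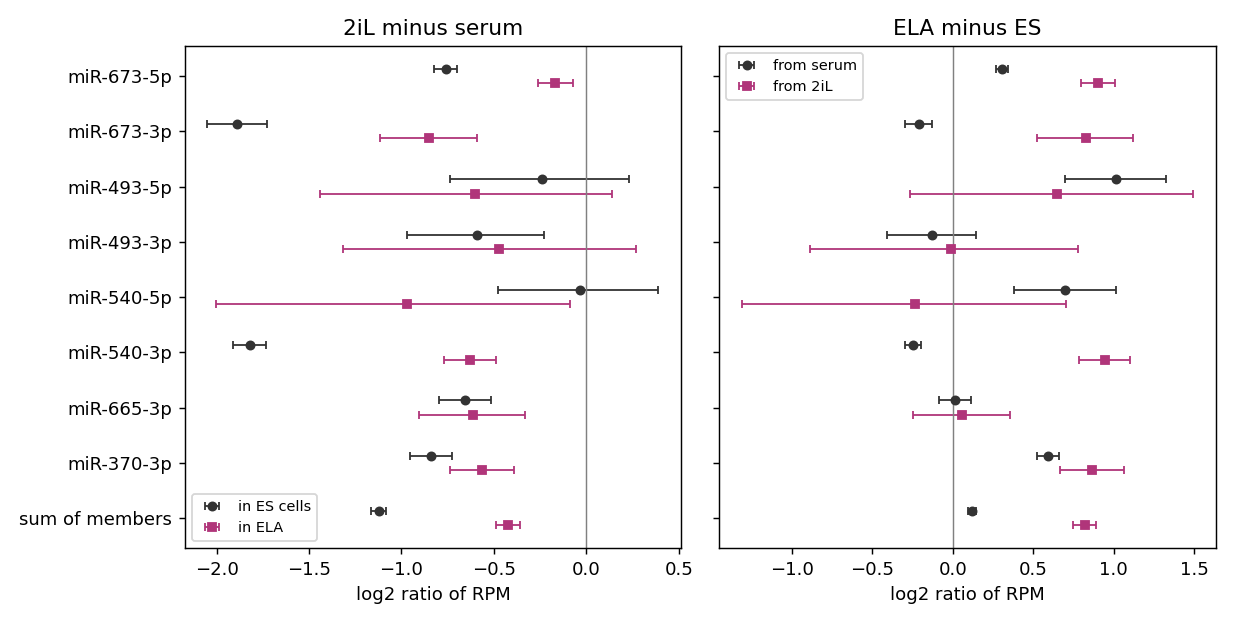
Log2 ratio of RPM between 2 libraries for each of the 8 members and for the sum of the members, with exact 95% intervals for counting error, for 2iL minus serum (left) and ELA minus ES (right). All points on the left are below 0, while on the right miR-673-3p and miR-540-3p lie below 0 from serum and above 0 from 2iL.

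The arms of a hairpin did not keep 1 ratio across libraries. The 5′ arm of Mir673 took 77.6% (serum) and 88.3% (2iL) of its reads in ES cells, and 83.2% (serum) and 88.9% (2iL) in ELA. The intervals of both 2iL libraries (87.1 to 89.4 and 86.9 to 90.5) were above those of both serum libraries (77.0 to 78.2 and 82.5 to 83.9). The 5′ arm of Mir540 took 1.55%, 5.14%, 2.94% and 2.34% in the same order, with ES 2iL above ES serum and ELA serum beyond counting error. That of Mir493 took 33.1% in ES serum and 52.2% in ELA serum (intervals 29.1 to 37.4 and 46.9 to 57.4), while the intervals of the 2iL libraries (30.6 to 47.5 in ES cells and 33.6 to 66.4 in ELA) overlapped.

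For 2 hairpins the other arm is no member. miR-370-5p was at 72.5 RPM (serum) and 37.2 RPM (2iL) in ES cells, and at 78.4 RPM (serum) and 138 RPM (2iL) in ELA. In ELA 2iL it was above ELA serum, where miR-370-3p was below, and its share of the hairpin was 21.6% (17.7 to 26.0), against 9.60% to 12.9% in the other libraries. miR-665-5p rested on 7 to 24 reads a library, at 2.32 to 11.9 RPM, and was 0.78% to 5.83% of its hairpin. On 7 reads in ELA 2iL it was above ELA serum (log2 ratio 2.36, interval 0.73 to 3.90), where miR-665-3p was below. In ES cells its media did not differ beyond counting error. The lower level in 2iL of all members with reads thus did not hold for every arm of their hairpins.

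**Figure D3:**
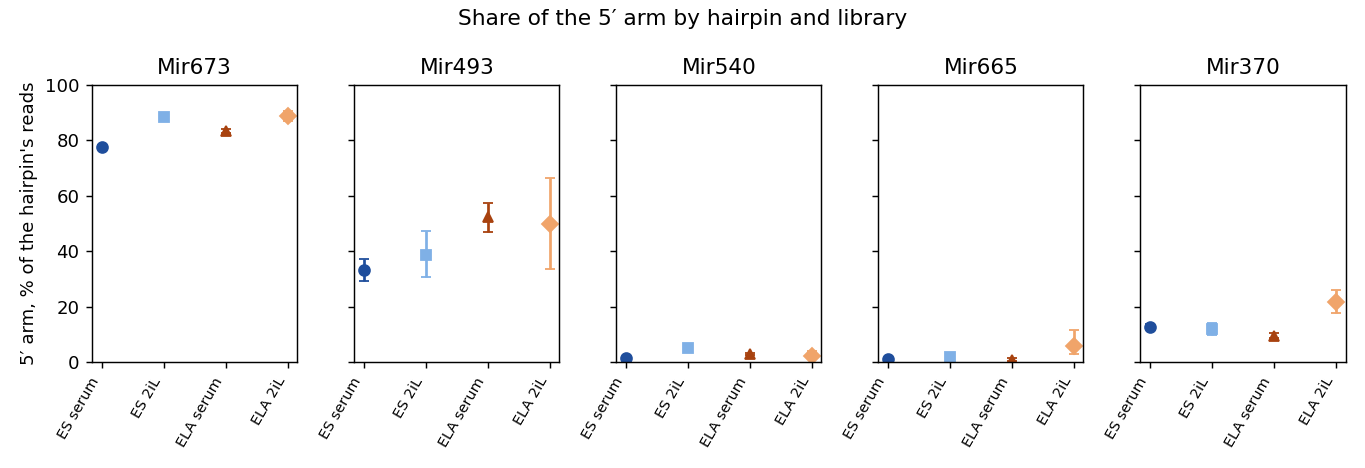
Share of the 5′ arm in the reads of each hairpin (%), 1 point a library, with Wilson 95% intervals. Mir673 has the highest share of the 5′ arm in each library, Mir540 and Mir665 stay under 6%, and Mir370 is highest in ELA 2iL at 21.6%.

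A pair of other groups of the region had far larger sums, each carried by a few arms. The 13 listed arms of the Rtl1-antisense group summed to 18.5% (serum) and 5.09% (2iL) of reads in ES cells and to 19.96% (serum) and 8.47% (2iL) in ELA, most of it miR-127-3p (174652, 40028, 185924 and 71252 RPM), with miR-434-3p next (3259, 5915, 5059 and 7653 RPM). The 79 listed arms of the miR-379/miR-410 cluster summed to 10.4%, 5.26%, 14.1% and 9.62%, led by miR-541-5p and miR-411-5p. The median level of the cluster's listed arms (52.0 to 78.3 RPM) was below that of the members in the same library (76.6 to 168 RPM). These medians are of unlike lists, as the members leave out miR-665-5p (2.32 to 11.9 RPM) and miR-370-5p (37.2 to 138 RPM). They therefore do not show that the members' hairpins were the higher. Each sum had its lowest value in ES 2iL and its highest in ELA serum, as the members had. The list of the miR-379/miR-410 cluster holds the arms of miR-3544, which by position belong beside Mir337, with 1 read each.

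Member by member the lists differed more. Lower in 2iL at both stages were 4 of 8 miRNAs of the Rtl1-antisense group and 15 of 44 of the miR-379/miR-410 cluster that were expressed, beside the 6 of 6 members. The median difference in ES cells was −0.11 for the Rtl1-antisense group, 0.00 for the miR-379/miR-410 cluster and −0.80 for the 6 members on the log2(RPM + 1) scale. It was −1.67 for the 3 expressed miRNAs among the other arms of the region, of which 3 of 3 were lower in 2iL in ES cells and 2 of 3 in ELA, so that lower levels in 2iL were not particular to the members. Without miR-127-3p, the Rtl1-antisense group summed to 10029 RPM in ES serum and 10887 RPM in ES 2iL. In ELA this sum was 13699 RPM (serum) and 13453 RPM (2iL). The 12 remaining arms of the region summed to 0.414%, 0.131%, 0.492% and 0.139% of reads, most of it miR-341-3p, which lies within Rian as Mir370 does. miR-341-3p was at 3919 RPM (serum) and 1233 RPM (2iL) in ES cells and at 4662 RPM (serum) and 1129 RPM (2iL) in ELA, and so did not have the higher level in ELA 2iL than in ES 2iL that miR-370-3p had.

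**Figure D4:**
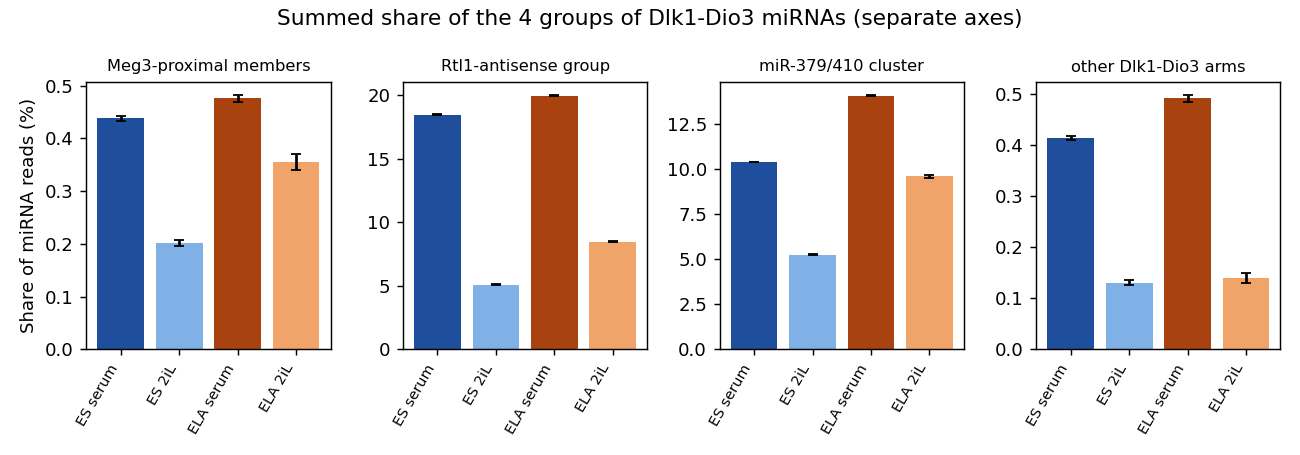
Summed share of miRNA reads (%) of the members and of 3 other groups of Dlk1-Dio3 miRNAs in each library, on separate axes that start at 0, with Wilson 95% intervals. In each panel ES 2iL is lowest and ELA serum highest, and ELA 2iL is close to ES 2iL only in the panel of the other arms.

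Over the 4 libraries, the miRNAs whose centred log2(RPM + 1) profile was nearest to that of the members' sum were miR-181a-5p (root mean square difference 0.074), miR-411-5p (0.133), miR-434-5p (0.136), miR-149-5p (0.1498) and miR-300-5p (0.168), against a median of 0.891 over 296 miRNAs. miR-181a-5p, which is encoded outside the region, was at 98.8, 45.2, 117 and 90.2 RPM. Of the 5 nearest, 3 were of the Dlk1-Dio3 region, to which 55 of the 296 (18.6%) belonged. The profile has 4 points, so this likeness is a description.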

How the data were processed

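Small RNA of 4 libraries was sequenced by the authors. Per the labels and the study's methods, reads were demultiplexed with CASAVA (version 1.8), trimmed with Trimmomatic, mapped to mm9 with Bowtie and assigned to the miRNAs of miRbase20 with featureCounts. Other versions and the settings for strand, overlaps and multiple matches were not given in the sources used here. The authors deposited RPM values, which are shares of miRNA reads and fall when other miRNAs rise. Every value was a whole multiple of 1 read (100%, tolerance 0.01 read), and the reads were recovered from it. The floor of 3 reads equals 0.372 RPM (serum) and 1.08 RPM (2iL) for ES cells, and 0.696 RPM (serum) and 5.11 RPM (2iL) for ELA. Intervals and floors cover counting error only, as the reads carry no molecular identifiers. 0 columns were left out.

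Groups follow titles and source names. The description field exchanges ES 2iL and ELA serum and was not used. limma (version 3.58.1) was fitted to log2(RPM + 1), which understates changes of low miRNAs, with edgeR (version 4.0.16) and DESeq2 (version 1.42.0) on the recovered reads as alternatives. The limma spread of a miRNA rests on 1 residual degree of freedom and is shared across miRNAs (3.79 prior degrees of freedom). Because pooled RNA was used, p-values set a difference against the departure of 4 libraries from additive terms. They do not measure a spread between experiments. The fits were tested on simulated data with known changes. limma on RPM did not pass in every simulation: where abundant miRNAs were among those changed, RPM values of the unchanged ones shifted and many were called, which TMM scaling mostly prevented, and in some draws limma called nothing at all, with RPM, with TMM or with the true library sizes. Its count of 0 calls therefore does not show that nothing differed. edgeR and DESeq2 made few false calls in every scenario.

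Named were all members, the 5 miRNAs nearest in profile, the 2 most abundant of each region list and miRNAs with a member's seed. miR-665-5p, miR-143-3p, miR-9-5p, miR-124-3p and the arms of miR-3544 fall outside this rule and were named after their values were seen. Members and lists were chosen with earlier results of these data known.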

Additional observations from a re-analysis of the deposited data

Results flagged for a closer look

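For 2 members the ELA minus ES difference had opposite signs in the 2 media, each clear of counting error. miR-673-3p was lower in ELA from serum (log2 ratio −0.21) and higher in ELA from 2iL (0.83), a difference between the media of 1.04 (95% interval for counting error 0.74 to 1.34). miR-540-3p was lower from serum (−0.25) and higher from 2iL (0.94), a difference of 1.19 (1.03 to 1.36). With 1 library in each group, the difference between the media was not tested. The sign from serum depends on small values: with DESeq2 size factors the serum ratios were −0.01 and −0.05, while the differences between the media were 0.96 and 1.11. A larger ELA minus ES difference from 2iL was not particular to these 2 members. It was clear of counting error for 4 of 8 members, and the reverse for 0. The others were miR-673-5p (0.59, interval 0.48 to 0.70) and miR-370-3p (0.28, interval 0.07 to 0.48). How many of all expressed miRNAs had opposite signs was not counted.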

How the results depend on the processing

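No member was called for stage under any alternative. For medium, 2 members (miR-673-3p and miR-540-3p) were called with DESeq2 size factors and 2 with the DESeq2 Wald test, 1 with edgeR, and 0 with TMM factors, other pseudocounts (0.5 and 5 RPM) or no filter. Over all 599 miRNAs, limma on RPM called 0 for stage and 0 for medium, against 45 and 73 with TMM factors, 89 and 117 with DESeq2 size factors, 9 and 38 with a pseudocount of 5 RPM, 39 and 64 with edgeR and 50 and 80 with DESeq2, and 99 and 130 of 1202 with no filter, so the count of calls depends on the scaling and the tool. With TMM factors the log2 ratio of the summed level was 0.23 for ELA against ES from serum, 1.07 from 2iL, −1.61 for 2iL against serum in ES and −0.77 in ELA. With DESeq2 size factors these were 0.32, 0.94, −1.53 and −0.91, and with totals that leave out the miRNAs among the 5 most abundant of any library 0.061, 1.17 and −1.54, with the last within its interval. Scaling moved the median of all expressed miRNAs for ES 2iL against ES serum from 0.44 to −0.05 (TMM), and the members' median from −0.71 to −1.20. All 8 members were lower in 2iL at both stages under each scaling. These scalings of that count were added after seeing the data, as were those of the members with both 2iL libraries below both serum libraries (5 of 8 with RPM and 7, 7 and 6 of 8 with the others) and of the members lower or higher by at least 1. Of 160 alternative values of single members, 7 changed sign, none of them between media and none of them clear of counting error. No paired analysis was possible because each group holds 1 library and the groups share only 1 replicate number, while medium was already a term in the fit for stage, and stage in that for medium. Leaving out a library would leave no residual degree of freedom, so no such test was made. ELA 2iL, the shallowest library, limits the members under 50 RPM, with 11 to 16 reads each.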
